A study of Mus musculus with 14 samples.

Results

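The T-cell receptor complex and its proximal signalling were followed through 9 genes, taken by symbol from the deposited expression table of bone marrow-derived macrophage cultures: Cd3d, Cd3e, Cd3g and Cd247 (receptor chains), Lck and Zap70 (kinases), Lat (adaptor), Cd2 (co-receptor) and Il7r (cytokine receptor). These are 9 of the 17890 genes in the table, and each was found there. The diabetic group was 4 libraries from cultures of male mice of the inbred strain C57BL/6J that were 8 weeks old at the start and were injected intraperitoneally with streptozotocin (42 to 45 mg/kg daily for 5 days), which kills the pancreatic cells that make insulin. Animals were taken as diabetic when their non-fasted glucose exceeded 16.9 mmol/L. The healthy group was 4 libraries from control mice of the same strain, sex and age without streptozotocin. After 6 weeks of hyperglycaemia, marrow progenitors of both groups were grown for 7 days in DMEM with 5 mmol/L glucose and recombinant murine M-CSF, the growth factor that drives macrophage formation. Messenger RNA was then sequenced, and the comparison asks what the cells retained from the diabetic animal at this first phase of the study. The 6 samples of a second phase (diabetic-trained and untrained) were not analysed here.

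The column names carry a D for diabetic and an M that no label explains. M was assigned to the healthy mice as the group left over, and with the opposite assignment every direction given here would turn. No label ties a library to an animal of its own, and the p-values cover only the spread of these samples, which may be technical. The libraries held 19784150 to 20028111 estimated counts in the diabetic group and 19048248 to 19926448 in the healthy group. Among the diabetic libraries, replicates 1 and 3 lay farthest apart on the leading principal component, at -16 and -54.5. Markers of other cells were present beside those of the labelled macrophages: summed neutrophil markers were at 45379 to 70357 CPM (counts scaled to a common library size) in diabetic and 39205 to 41096 CPM in healthy libraries, and summed macrophage markers at 9989 to 14925 CPM and 7125 to 8205 CPM. Sums of different lists give no cell proportions. In bulk RNA, more cells of a type and more RNA per cell cannot be told apart, and this holds for every result below.

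The T-cell receptor recognises peptide through its variable chains but signals through the attached CD3 delta, epsilon and gamma chains and the zeta chain pair encoded by Cd247. Lck phosphorylates tyrosine motifs in the tails of these chains, Zap70 docks on them, and Zap70 then phosphorylates the membrane adaptor Lat, which gathers phospholipase C gamma and Ras activators. The whole complex is a hallmark of T cells. Natural killer cells use the zeta chain and Lat without a T-cell receptor, mast cells and platelets use Lat, and in mice Cd2 and Il7r are also carried by cells of the early B lineage.

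The promoter windows of the genes whose levels differed most between the groups are shown because the 3 CD3 genes lie side by side and moved together, while Il7r moved the other way. Each window runs from 250 bases before to 50 bases after a RefSeq transcript start (GRCm38.p6), 5′ to 3′ on the gene's strand. The windows are Cd3g at chr9:44980382-44980681 (minus strand), Cd3d at chr9:44981536-44981835 (plus), Cd3e at chr9:45009562-45009861 (minus), Zap70 at chr1:36761548-36761847 (plus) and Il7r at chr15:9529827-9530126 (minus). Capitals mark CAGGTG on either strand (written CACCTG where it lies on the other strand), an E-box that E proteins can bind. In Il7r, which holds none, capitals mark TGTGGT, a word of the RUNX motif.
Cd3g: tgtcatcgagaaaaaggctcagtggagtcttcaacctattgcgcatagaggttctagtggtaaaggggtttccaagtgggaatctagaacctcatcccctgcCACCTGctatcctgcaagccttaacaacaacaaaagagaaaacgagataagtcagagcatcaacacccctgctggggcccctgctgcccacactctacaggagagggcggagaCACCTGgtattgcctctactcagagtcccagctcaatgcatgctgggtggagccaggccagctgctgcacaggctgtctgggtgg
Cd3d: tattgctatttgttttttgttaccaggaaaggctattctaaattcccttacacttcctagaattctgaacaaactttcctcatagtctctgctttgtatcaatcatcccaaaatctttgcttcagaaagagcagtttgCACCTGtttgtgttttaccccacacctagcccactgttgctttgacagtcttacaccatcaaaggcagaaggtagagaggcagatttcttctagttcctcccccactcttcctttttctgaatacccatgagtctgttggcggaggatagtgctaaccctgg
Cd3e: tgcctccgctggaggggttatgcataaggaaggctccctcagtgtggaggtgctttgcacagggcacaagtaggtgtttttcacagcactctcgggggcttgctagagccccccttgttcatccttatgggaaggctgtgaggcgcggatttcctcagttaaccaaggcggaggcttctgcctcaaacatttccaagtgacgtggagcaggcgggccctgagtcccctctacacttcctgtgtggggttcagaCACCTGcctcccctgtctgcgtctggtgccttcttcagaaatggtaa
Zap70: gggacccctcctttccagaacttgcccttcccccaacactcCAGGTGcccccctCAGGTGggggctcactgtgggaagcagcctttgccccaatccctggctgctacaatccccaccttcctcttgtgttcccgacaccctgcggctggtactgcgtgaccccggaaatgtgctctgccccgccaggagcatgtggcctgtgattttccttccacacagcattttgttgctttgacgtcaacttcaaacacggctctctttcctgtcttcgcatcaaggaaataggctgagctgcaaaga
Il7r: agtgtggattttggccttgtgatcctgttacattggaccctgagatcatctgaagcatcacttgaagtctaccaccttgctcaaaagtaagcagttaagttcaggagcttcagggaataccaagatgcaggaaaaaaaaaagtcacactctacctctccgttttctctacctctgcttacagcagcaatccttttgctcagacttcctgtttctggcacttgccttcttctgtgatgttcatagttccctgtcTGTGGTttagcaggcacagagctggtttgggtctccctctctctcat

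Windows were at hand for 8 of the 9 genes, and Cd2 had none. CAGGTG lay in a window of 6 of these 8 genes (Cd3d, Cd3e, Cd3g, Cd247, Lck and Zap70), against 20.2% of the 32851 mouse windows of the same length. The ETS word AGGAAG lay in 7 of 8, all but Cd3g, against 35.4% of all windows. TGTGGT lay in 4 of 8 (Il7r, Lat, Lck and Zap70), against 16.8%. The TATA word TATAAA lay in none of them, against 13.6%. The motifs were searched on both strands, none of the words contains another, and they were picked after the sequences had been read. Lck and Zap70 have several windows each, which gives them more chances of a match. The gene called lower that had a window, Il7r, held AGGAAG and TGTGGT, and the uncalled genes Cd247 and Lck held CAGGTG as the called CD3 genes did.

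Of the 9 genes, 4 were called higher in diabetic cultures (Cd3d, Cd3e, Cd3g and Zap70), 2 were called lower (Cd2 and Il7r) and 3 passed no test (Cd247, Lck and Lat), by edgeR's quasi-likelihood fit at an adjusted p of 0.05 over 12839 genes (Benjamini-Hochberg). In the same fit 17.4% of all tested genes were called higher and 17.3% lower, 34.7% together, so calls were common in this comparison. These shares are also the background for the counts of every gene list below. All 9 passed the filter on low counts. Their median log2 fold change, diabetic over healthy, was 0.26, against -0.03 over all tested genes. The groups did not overlap in CPM for Cd3d, Cd3e, Cd3g and Zap70, with diabetic above, as for 16.3% of tested genes, and for Il7r, with diabetic below, as for 18.4%. The CD3 chains and Zap70 rose, the zeta chain gene, Lck and Lat passed no test, and Cd2 and Il7r, surface receptors outside the complex, fell.

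**Figure D1:**
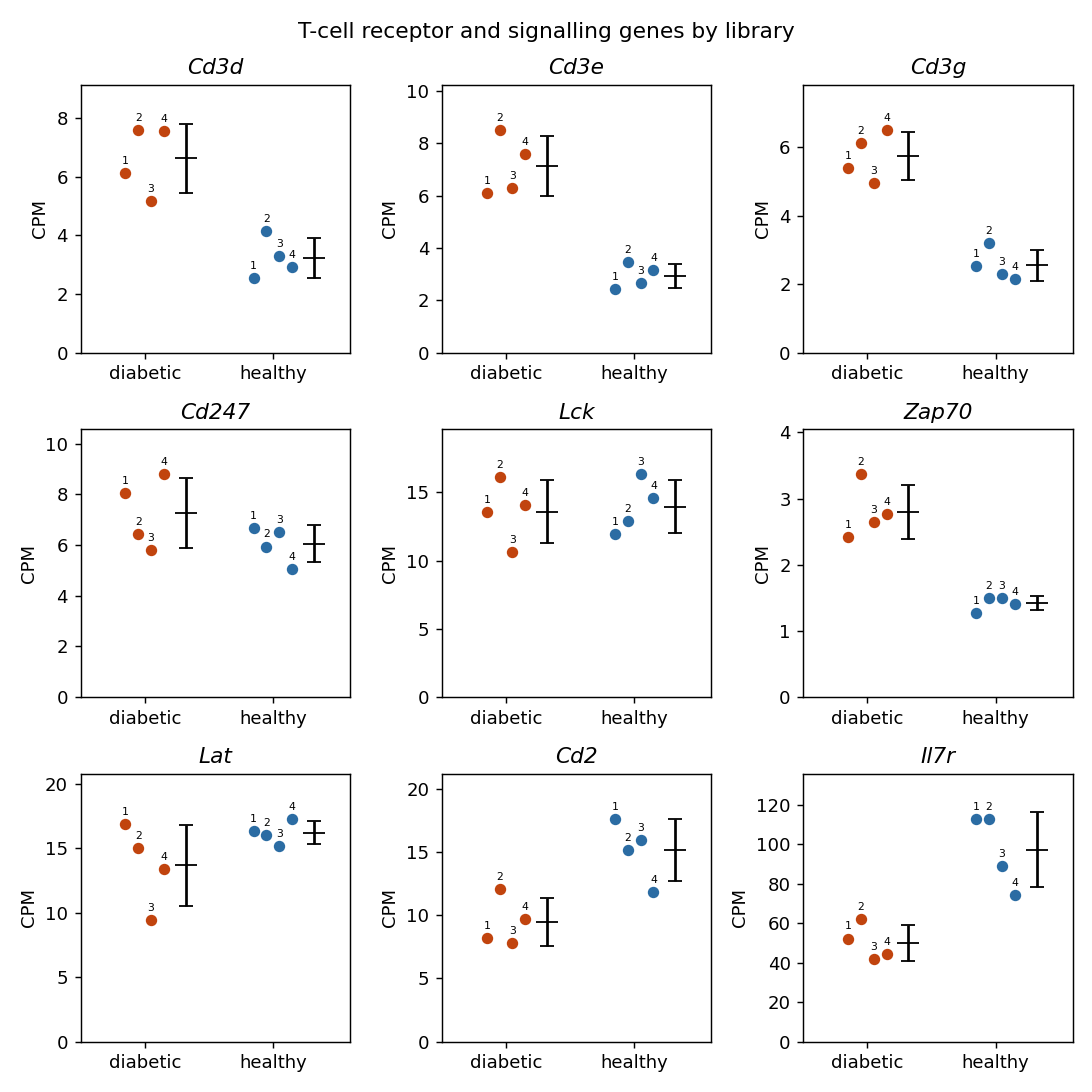
Level of each of the 9 genes in each library, in CPM on TMM-scaled library sizes. Points are libraries, diabetic left of healthy, with the mean and SD of 4. The CD3 genes and Zap70 lie higher in every diabetic library, Il7r lies lower in every one, and Cd2 overlaps by diabetic replicate 2 (12.1 CPM) and healthy replicate 4 (11.8 CPM).

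The 3 CD3 chains were about 2-fold more abundant in diabetic cultures. Cd3e (NCBI gene 12501), the epsilon chain that pairs with both delta and gamma, was at 6.09, 8.53, 6.29 and 7.61 CPM in diabetic replicates 1 to 4, against 2.44, 3.45, 2.65 and 3.16 CPM in healthy replicates 1 to 4. The lowest diabetic library stood above the highest healthy one by more than the whole healthy range. The means were 7.13 ± 1.15 CPM in diabetic and 2.93 ± 0.460 CPM in healthy libraries (SD, n = 4 each), a log2 fold change of 1.28 ± 0.17 (SE, edgeR adjusted p = 0.000369).

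Cd3g (gene 12502), the gamma chain, was at 5.38, 6.13, 4.96 and 6.51 CPM in diabetic and 2.54, 3.2, 2.3 and 2.16 CPM in healthy libraries. The groups were again apart, with a log2 fold change of 1.17 ± 0.17 (edgeR adjusted p = 0.000605). Cd3d (gene 12500), the delta chain, was at 6.14, 7.61, 5.19 and 7.56 CPM in diabetic and 2.54, 4.15, 3.31 and 2.91 CPM in healthy libraries. Its groups came closest, between diabetic replicate 3 and healthy replicate 2, and its log2 fold change was 1.04 ± 0.19 (edgeR adjusted p = 0.00226). The Cd3d call depended on how transcripts were summed, and was lost with curated transcripts only (0.94, edgeR adjusted p = 0.114) and with the most abundant transcript only (1.11, adjusted p = 0.0504). For all 3 chains diabetic replicate 2 or 4 was the highest library, and diabetic replicate 1 or 3 the lowest of its group.

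The proportions of the 3 chains differed little between the groups. Per length, in the TPM unit, Cd3d, Cd3e and Cd3g summed to 30.2, 37.5, 24.5 and 34.7 TPM in diabetic libraries and 12.8, 18.6, 14.6 and 14.5 TPM in healthy libraries. Cd3e made up 26.1% to 30.6% of that sum in diabetic and 24.5% to 29.5% in healthy libraries. Cd3g made up 30.7% to 35.4% in diabetic and 29.4% to 37.6% in healthy libraries, and Cd3d 34.0% to 40.2% and 37.4% to 44.0%. The ranges of all 3 shares overlapped, so the chains moved by like factors within the spread between libraries, on raw sums of 298 to 436 counts in diabetic and 154 to 216 in healthy libraries.

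The CD3 genes lie in one cluster on chromosome 9 (GRCm38): Cd3g at 44969572 to 44980431 on the minus strand, Cd3d at 44981769 to 44987052 on the plus strand, and Cd3e at 44998735 to 45009663 on the minus strand. Cd3g and Cd3d start back to back with 1337 bp between them, and 11682 bp separate Cd3d and Cd3e. Of 8 other tested genes within 200000 bp, 3 were called higher and 0 lower by edgeR, against 17.4% and 17.3% of all tested genes. Whether the region moved as a whole was not tested. The 3 called genes lie on the Cd3e side, as does BC049352, which was not called (log2 fold change 0.54, edgeR adjusted p = 0.159). Mpzl3 averaged 39.8 CPM in diabetic and 9.28 CPM in healthy cultures (log2 fold change 2.1, edgeR adjusted p = 0.0103), with overlapping groups. Jaml, an adhesion molecule of leukocytes, averaged 110 and 47.5 CPM (1.22, adjusted p = 0.0138). Scn2b, a sodium channel subunit, averaged 2.32 and 0.934 CPM (1.31, adjusted p = 0.00256). On the Cd3g side the nearest gene, Ube4a, lies 3957 bp away, was far more abundant and was not called (log2 fold change 0.10), nor were Atp5l, Kmt2a and Ift46.

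Cd247 (gene 12503) encodes the zeta chain, the main signalling tail of the receptor and also the partner of activating receptors in natural killer cells. It was at 8.05, 6.43, 5.79 and 8.81 CPM in diabetic and 6.69, 5.95, 6.51 and 5.07 CPM in healthy libraries. The groups overlapped, with means of 7.27 ± 1.40 and 6.05 ± 0.731 CPM (SD, n = 4 each). The log2 fold change was 0.26, with a 95% interval of -0.08 to 0.61 (edgeR adjusted p = 0.213). With curated transcripts only it was 0.75 (edgeR adjusted p = 0.0544), still uncalled and close to Cd3d's 0.94 in that setting.

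The gene-level value of Cd247 hid transcripts that went different ways. The 4 curated RefSeq transcripts share 7 exon ends and differ in the last exon. NM_001113391, which codes for 164 residues, the length of the zeta chain, ends in an exon at 165861004 to 165862066 of chromosome 1. It had 62.9, 52.3, 20.4 and 50.2 estimated counts in diabetic libraries and 0, 5.84, 0 and 4.84 in healthy libraries. All 4 diabetic libraries were thus above all 4 healthy ones, and the transcript took 33.2% of the gene's counts in diabetic and 2.19% in healthy cultures. NM_031162, which codes for 206 residues, the length of the alternative eta chain, ends at 165866655 to 165867436. It had 63.5, 17.6, 33.9 and 45.6 counts in diabetic and 82.3, 25.1, 59.5 and 43.1 counts in healthy libraries, with full overlap. The predicted transcript XM_011238745 was lower in diabetic cultures, at 13.9, 23.7, 26.1 and 0 counts, against 46.0, 59.9, 51.4 and 30.3 counts in healthy cultures.

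Part of Cd247 shares its sequence with a gene on the other strand. The exons of Pou2f1, which encodes the ubiquitous factor OCT1, cover the whole last exon of NM_031162 (782 bases), of NM_001113392 (2136 bases) and of NM_001113393 (1232 bases), and none of the 1632 exonic bases of NM_001113391, by the GENCODE M21 annotation. The overlap of the predicted transcripts, XM_011238745 among them, was not examined. Pou2f1 averaged 37.1 CPM in diabetic and 43.9 CPM in healthy cultures (log2 fold change -0.24, edgeR adjusted p = 0.0234), well above Cd247. Whether the counting used strand is not given in the sources used here, and without strand reads of both genes cannot be told apart there. NM_001113392 was higher in diabetic libraries, at 13.7 to 29.6 counts, against 0 to 6.92 counts in healthy libraries. Counts of single transcripts are the quantifier's estimates from shared exons and rest here on few reads.

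**Figure D2:**
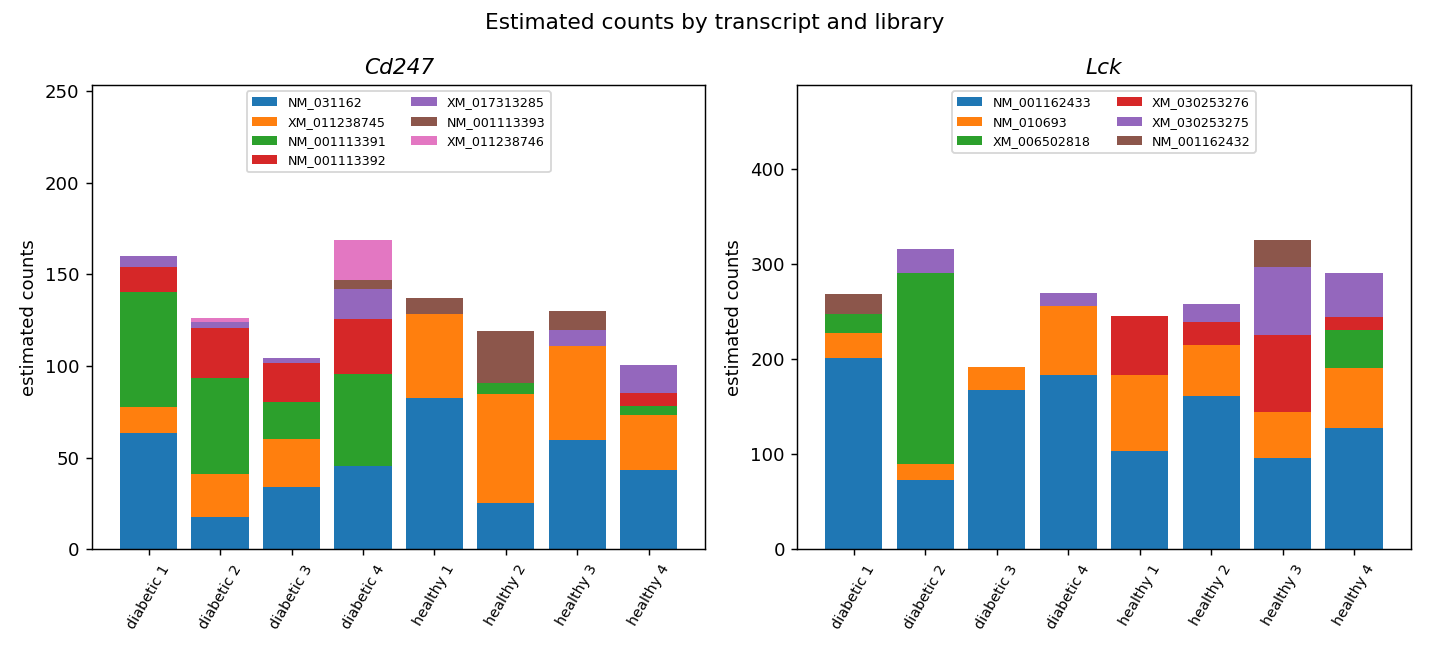
Stacked bars of the estimated counts of each transcript of Cd247 (left) and Lck (right), with 1 bar a library, diabetic left of healthy, and 1 colour a transcript. The zeta-length Cd247 transcript (NM_001113391, green) takes 20.4 to 62.9 counts in diabetic and 0 to 5.84 counts in healthy libraries, while the eta-length one (NM_031162, blue) overlaps.

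Among all 28 transcripts of the 9 genes, 21 had at least 80 counts over the 8 libraries. The groups did not overlap for 7 of the 21 with diabetic above and 3 with diabetic below, against 6.98% and 7.40% of the 36222 transcripts in the table that passed the same minimum. Cd3g has a lone transcript, and both entries of Cd3e were higher in diabetic libraries. Of Cd3d, the predicted XM_006509965 (57.5% of its counts) was apart between the groups and the curated NM_013487 (42.5%) overlapped. Il7r came almost whole from NM_008372 (98.0%), Lat largely from NM_010689 (86.8%) and Zap70 from NM_009539 (78.5%).

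Zap70 (gene 22637; chromosome 1, 36761798 to 36782821), the kinase that docks on the phosphorylated chains, was the least abundant of the 9 genes and moved with the CD3 chains. It was at 2.41, 3.37, 2.65 and 2.76 CPM in diabetic and 1.27, 1.50, 1.50 and 1.41 CPM in healthy libraries. Every diabetic library was above every healthy one, with means of 2.80 ± 0.407 and 1.42 ± 0.109 CPM (SD, n = 4 each). The log2 fold change was 0.98 ± 0.18 (edgeR adjusted p = 0.00259). With only the most abundant transcript counted, the call was lost (1.07, edgeR adjusted p = 0.0578), and with a filter of at least 50 counts in 4 libraries Zap70 was not tested. The family's other kinase, Syk, which serves in macrophages, mast cells and B cells, was far more abundant at 663 CPM in diabetic and 685 CPM in healthy cultures and was not called (edgeR adjusted p = 0.736).

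Lck (gene 16818; chromosome 4, 129548344 to 129573641), the Src-family kinase that starts the cascade, was at 13.5, 16.1, 10.6 and 14.1 CPM in diabetic and 12.0, 12.9, 16.3 and 14.6 CPM in healthy libraries. The groups overlapped throughout. The log2 fold change was -0.04, with a 95% interval of -0.35 to 0.27 (edgeR adjusted p = 0.856), and its sign turned under several alternatives. Lck has an upstream promoter, used by mature T cells, and a promoter near the coding exons, used by thymocytes. The transcript from the upstream first exon (129573515 to 129573641), NM_001162433, took 23.1% to 87.6% of the gene's counts in diabetic and 29.4% to 62.5% in healthy libraries. The share of this transcript thus varied more between libraries of a group than between groups. Where the predicted transcripts of Lck start was not examined, so the use of either promoter was not measured. The predicted transcript XM_030253276 had 0 counts in all 4 diabetic libraries and 14.1 to 80.9 in the healthy ones. Diabetic replicate 2 instead had 201 counts on another predicted transcript, XM_006502818.

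Lat (gene 16797; chromosome 7, 126363827 to 126369705), the adaptor that Zap70 phosphorylates, was at 16.9, 15.0, 9.43 and 13.4 CPM in diabetic and 16.4, 16, 15.2 and 17.3 CPM in healthy libraries. Diabetic replicate 1 lay within the healthy range and the other 3 below it. The log2 fold change was -0.25, with a 95% interval of -0.58 to 0.09 (edgeR adjusted p = 0.229). Markers of the other users of Lat did not all move the same way. Of 10 tested mast cell and basophil markers, 8 were called higher and 0 lower (summed level 1088 to 1473 CPM in diabetic, 571 to 713 CPM in healthy libraries). Of 18 natural killer and innate lymphoid markers, 12 were called higher and 0 lower. Of 13 megakaryocyte and platelet markers, 13 were called lower (255 to 379 CPM and 557 to 739 CPM). Of the mast cell markers, 2 were called lower without diabetic replicate 1, and 1 without healthy replicate 3 or with the replicate block. What part any of these cells had in the level of Lat was not tested. Its counterpart in myeloid and B cells, Lat2, was not called either (edgeR adjusted p = 0.0767).

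**Figure D3:**
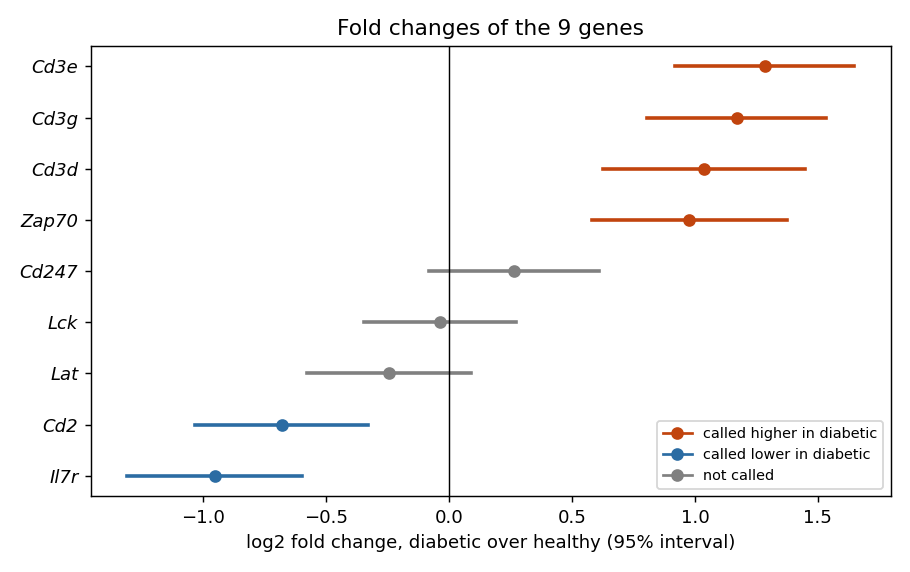
Log2 fold change of each gene, diabetic over healthy, with the 95% interval of edgeR's quasi-likelihood fit on 4 diabetic and 4 healthy libraries. Cd3e (1.28), Cd3g (1.17), Cd3d (1.04) and Zap70 (0.98) lie right of 0, Cd2 (-0.68) and Il7r (-0.95) left of it, and the intervals of Cd247, Lck and Lat span 0.

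Cd2 (gene 12481; chromosome 3, 101275908 to 101287939), an adhesion receptor of T and natural killer cells whose ligand in mice is Cd48, was lower in diabetic cultures. It was at 8.20, 12.1, 7.83 and 9.69 CPM in diabetic and 17.6, 15.2, 15.9 and 11.8 CPM in healthy libraries. Only diabetic replicate 2 and healthy replicate 4 crossed, and on the TPM scale the groups were apart. The log2 fold change was -0.68 ± 0.16 (edgeR adjusted p = 0.00824). Without diabetic replicates 1 and 3 together the call was lost (-0.46, edgeR adjusted p = 0.0589). Of 12 tested ligands and partners of Cd2, including its SLAM relatives, 3 were called higher and 6 lower, with a median log2 fold change of -0.32. Slamf6 averaged 5.78 ± 1.99 CPM in diabetic and 21.1 ± 2.00 CPM in healthy cultures, and Slamf7 12.8 and 45.9 CPM, while Cd84 was higher (391 and 252 CPM) as was the cytoskeletal partner Pstpip1 (213 and 156 CPM). Cd48 itself was not called (edgeR adjusted p = 0.140).

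Il7r (gene 16197; chromosome 15, 9506159 to 9529941), the alpha chain of the interleukin 7 receptor that early lymphoid cells and resting T cells need to survive, was the most abundant of the 9 genes and fell the most. It was at 52.3, 62.2, 41.9 and 44.5 CPM in diabetic and 113, 113, 89.0 and 74.3 CPM in healthy libraries. Every diabetic library was below every healthy one, with means of 50.2 ± 9.14 and 97.3 ± 19 CPM (SD, n = 4 each). The log2 fold change was -0.95 ± 0.16 (edgeR adjusted p = 0.00195). The ratio of Il7r to Cd3e, both per length in TPM, was 2.64 to 3.87 in diabetic and 10.6 to 20.5 in healthy libraries. The groups were already apart in TPM for both genes, in opposite directions. The separation of their ratio follows from that and is no further result.

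Of the 14 tested genes that act with or after the interleukin 7 receptor, 4 were called higher (2 without diabetic replicate 2, healthy replicate 1 or healthy replicate 4) and 3 lower, with a median log2 fold change of 0.11. Over all tested genes 17.4% were called higher and 17.3% lower. Foxo1, which encodes a factor that activates Il7r in lymphocytes, averaged 14.6 ± 3.58 CPM in diabetic and 59.1 ± 4.88 CPM in healthy cultures (log2 fold change -2.01). The feedback inhibitors Socs1 (2.00 and 4.60 CPM) and Socs2 (log2 fold change -0.85) were lower, and the signal transducer Stat5b was higher (165 and 131 CPM, log2 fold change 0.34). Il2rg, the shared gamma chain that completes the receptor, was not called (edgeR adjusted p = 0.695). The alpha chain thus fell while its partner chain passed no test.

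Il7r and Cd2 are also carried by cells of the B lineage and by early lymphoid cells. Most but not all markers of these cells were called lower. Of 20 tested B-lineage markers, 0 were called higher and 16 lower, with a median log2 fold change of -2.92 and a summed level of 130 to 441 CPM in diabetic against 2052 to 2660 CPM in healthy libraries. Among these, Ms4a1 (CD20) averaged 15.2 and 105 CPM, Cd22 12.3 and 55.7 CPM, Pou2af1 23.0 and 198 CPM, and Cd79b, a signalling chain of the B-cell receptor, 28.7 and 277 CPM. Of 14 early lymphoid genes, 2 were called higher and 9 lower (median -0.38, summed 1187 to 1328 CPM in diabetic and 1605 to 1829 CPM in healthy libraries). Rag1, the recombinase of developing lymphocytes, averaged 11.2 and 135 CPM, Ikzf3 22.8 and 134 CPM, Tcf3 64.7 and 150 CPM, and Sox4 32 and 72 CPM. Of 10 plasmacytoid dendritic cell markers, 0 were called higher and 7 lower (287 to 518 CPM in diabetic and 698 to 758 CPM in healthy libraries), among them Tlr9, Ly6d, Tcf4 and Siglech; 1 was called higher without diabetic replicate 1 or 2. The lists share genes: Rag1 and Dntt are on the B-lineage and early lymphoid lists, and Ly6d is on the early lymphoid and plasmacytoid lists. No gene of these lists was at 0 in every library, and the part of these cells in the levels of Il7r and Cd2 was not tested.

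Of 20 tested further T-lineage genes, 10 were called higher, 3 lower and 7 neither way, with a median log2 fold change of 0.66. The 10 higher calls became 3 with the most abundant and 6 with curated transcripts only, and 5 with a filter of 50 counts. They became 4 with FPKM and 7 or 8 with TPM. The 3 lower calls became 5 without diabetic replicates 1 and 3. Thy1, a surface protein of T cells, averaged 11 ± 1.06 CPM in diabetic and 4.92 ± 0.920 CPM in healthy cultures, Cd6, a co-receptor bound to the T-cell receptor, 5.30 ± 1.03 and 1.63 ± 0.618 CPM, and Themis, a regulator of thymocyte signalling, 3.13 ± 0.884 and 0.884 ± 0.256 CPM. S1pr1, the receptor by which lymphocytes leave tissues, went the other way (25.2 ± 5.64 and 67.3 ± 3.50 CPM, log2 fold change -1.42). The co-receptors Cd4 (4.54 and 3.70 CPM, edgeR adjusted p = 0.475) and Cd8a (10.8 and 8.4 CPM, adjusted p = 0.0634) were not called. The genes of the receptor's own constant regions, Trac, Trbc1, Trbc2, Trdc, Trgc1 and Trgc2, were not found by symbol among the genes of the table. The recognising chains of the complex thus have no value here. The summed level of the list was 1157 to 1641 CPM in diabetic and 849 to 1095 CPM in healthy libraries.

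Of 18 tested natural killer and innate lymphoid markers, 12 were called higher (7 with a filter of 50 counts or with curated transcripts only) and 0 lower, with a median log2 fold change of 1.03 and a summed level of 427 to 545 CPM in diabetic and 310 to 342 CPM in healthy libraries. Klre1 and Klrc1, receptors of natural killer cells, averaged 2.72 ± 1.15 and 6.27 ± 2.85 CPM in diabetic against 0.336 ± 0.111 and 0.884 ± 0.299 CPM in healthy cultures. The chemokine gene Ccl5 averaged 15.4 and 6.06 CPM, and Il2rb, a receptor chain for interleukins 2 and 15, averaged 19.1 and 7.68 CPM. The macrophage markers also rose in part, with 11 of 18 called higher and 1 lower (0 without diabetic replicate 2, and 2 with the replicate block), led by Fcgr1, Maf, Lyz2 and C1qa, and 11 of 15 neutrophil markers were called higher and 0 lower, led by Camp, Lcn2, Mmp9 and Ngp. What part any of these cells had in the CD3 and Zap70 levels was not tested.

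**Figure D4:**
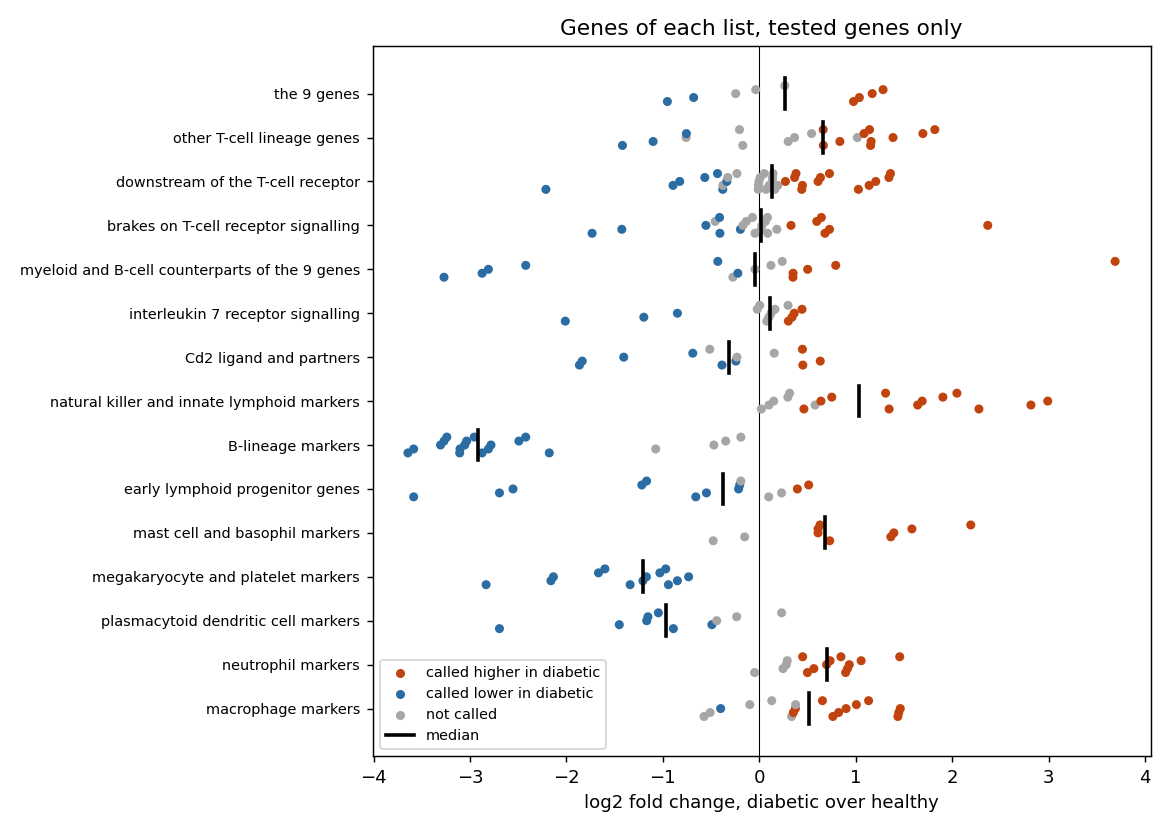
Log2 fold change, diabetic over healthy, of each tested gene (1 point a gene) in each gene list and in the 9 genes themselves, coloured by edgeR's call, with the list's median as a black bar. Points are spread up and down only to keep them apart. In the T-lineage list 10 genes were called higher and 3 lower, in the natural killer list 12 and 0, in the B-lineage list 0 and 16, and in the early lymphoid list 2 and 9.

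Genes downstream of the receptor were called in both directions. Of 35 tested adaptors, kinases and enzymes, 13 were called higher and 7 lower, with a median log2 fold change of 0.14. Over all tested genes 17.4% were called higher and 17.3% lower. The list summed to 4223 to 5043 CPM in diabetic and 3986 to 4210 CPM in healthy libraries. The 9 genes summed to 94.7 to 138 CPM and 133 to 175 CPM. Which cells the levels of the list came from was not tested. Lcp2, the SLP-76 adaptor that joins Lat, averaged 225 ± 29.7 CPM in diabetic and 145 ± 7.85 CPM in healthy cultures (log2 fold change 0.63). Rasgrp1, the exchange factor that links the receptor to Ras in lymphocytes, went the other way (5.32 ± 1.97 and 24.7 ± 3.70 CPM, -2.21), as did the transcription factor Nfatc3 (116 and 156 CPM, -0.43). The groups were apart for all 3 of these genes.

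Genes listed as brakes on the receptor were also called in both directions. Of 23 tested, 6 were called higher and 6 lower (3 without diabetic replicate 2, healthy replicate 1 or diabetic replicates 1 and 3). Over all tested genes 17.4% were called higher and 17.3% lower. The list's median log2 fold change was 0.02. It summed to 3471 to 4996 CPM in diabetic and 3280 to 3746 CPM in healthy libraries, and the cells behind these levels were not tested. The inhibitory receptor Pdcd1 (PD-1) averaged 2.07 ± 0.797 CPM in diabetic and 0.398 ± 0.0870 CPM in healthy cultures (log2 fold change 2.37), and the phosphatase gene Ptpn22 70.4 and 42.5 CPM (0.73). The inhibitory receptor Btla averaged 9.94 ± 3.01 and 33.1 ± 4.84 CPM (-1.73), and Csk, the kinase that holds Lck and other Src kinases inactive, 192 and 254 CPM (-0.41). Among 15 myeloid and B-cell counterparts of the 9 genes, 5 were called higher and 6 lower. The lower ones with the lowest p were the B-cell genes Cd79b, Cd79a, Blk and Blnk, which are also on the B-lineage list, while Fcer1g, the signalling chain of Fc receptors, was higher (418 and 328 CPM).

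The order of the 9 genes by level differed between the groups. Per length, the mean levels in diabetic cultures were Il7r 28.6 TPM, Lat 20.2 TPM, Cd2 15.5 TPM, Cd3d 12.2 TPM, Lck 11.9 TPM, Cd3g 10.6 TPM, Cd3e 8.95 TPM, Cd247 7.26 TPM and Zap70 2.59 TPM. The ranges of neighbours in this order overlapped, apart from Cd247 and Zap70. Within single diabetic libraries the order of neighbours held in all 4, apart from Cd3d over Lck and Cd3e over Cd247, which held in 3. In healthy cultures the mean levels were Il7r 58.6 TPM, Cd2 26.3 TPM, Lat 25.4 TPM, Lck 12.8 TPM, Cd3d 6.21 TPM, Cd247 6.01 TPM, Cd3g 4.99 TPM, Cd3e 3.93 TPM and Zap70 1.45 TPM. There the ranges of Il7r and Cd2, of Lat and Lck, of Lck and Cd3d, and of Cd3e and Zap70 did not overlap. Within single healthy libraries Cd2 was above Lat, Cd247 above Cd3g and Cd3g above Cd3e in 3, and Cd3d above Cd247 in 2. Over both groups the 9 genes ranked from the 39.2 percentile (Zap70) to the 79.9 percentile (Il7r) of mean TPM among 17883 genes above 0, so none was at the bottom of the table and none near its top.

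The genes most like each of the 9 in level over the 8 libraries, by Pearson's r of log2 CPM among 12064 genes searched, are given as a description, since both groups enter r and a difference between them raises it. Cd3e was closest to Gimap3 (0.994) and Gimap4 (0.988), GTPases of lymphocytes, and to Tmed7 (0.987). Cd3d was closest to Magt1 (0.988), Gimap3 (0.985) and Traf1 (0.979), and Cd3g to Btbd11, Kpna1 and Decr2. Zap70 was closest to Calcrl (0.992), Il7r to Rcbtb1 (0.986), Cd2 to Mbip (0.976) and Lat to Gemin4 (0.997). Values were lower for Lck, closest to Cdkn1a (0.956), and for Cd247, closest to Ifi206 (0.917).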

How the data were processed

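The deposited table holds estimated counts for each RefSeq transcript, per the file headers, with the authors' TPM (per length, scaled to a common total) and the authors' FPKM (per length and library size) beside them. Per the labels' design text, oligo(dT)-selected RNA was sequenced as DNA nanoballs, reads were cleaned by SOAPnuke 1.5.6, and mm10 was the aligner's target (the aligner is spelled HISTA2 2.1.0). GRCm38 appears in the submitters' processing notes too. How transcripts were quantified, on which annotation release and whether by strand is not given in the sources used here. Another 8 columns of normalized counts and 8 of group means were not used.

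Here the estimated counts of 60072 transcripts were summed to 17890 genes (17836 with a RefSeq symbol) and rounded. A second entry of 1575 transcripts was summed with the rest: where a gene held just such a pair, 59.2% of values were equal (tolerance 0.011), and 24.4% of these lay midway between whole numbers, as shared reads split evenly would, against 0.602% in genes with 1 transcript. For Cd2, whose entries are equal, summing leaves the fold change as it is. Genes with few counts were left out by filterByExpr (minimum count 10, minimum total 15), leaving 12839. Groups were compared by edgeR 4.0.16 in R 4.3.3 (robust quasi-likelihood fit with group as the sole term, TMM factors 0.913 to 1.01 in diabetic and 1.03 to 1.05 in healthy libraries). P-values were adjusted by Benjamini-Hochberg, and 0.05 was the threshold. The biological coefficient of variation was 12.4%. CPM use TMM-scaled library sizes. Every replicate pair differed beyond sampling noise (6.52 to 67.7 chi-square units a gene), so none were treated as duplicate deposits. The script was checked on simulated counts.

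The labels number replicates 1 to 4 in both groups, without saying what a number stands for. Deviations of same-numbered libraries from their group means correlated at 0.115, 0.131, 0.118 and 0.182, and those of other pairs at -0.178 to 0.0735, so the numbers were treated as pairing the samples in an alternative fit with the number as a block. The 9 genes and the gene lists were chosen with earlier results of these data known. Named besides them were up to 4 called genes of lowest p per list and the 3 genes most like each of the 9, and a few more, such as Cd4, Cd8a, Syk, Cd48, Il2rg and Fcer1g, after their values were seen. A few genes that this rule names are not reported here. Alternatives changed the scaling, filter, test (DESeq2 1.42.0, limma 3.58.1), unit, transcripts, threshold and libraries.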

Additional observations from a re-analysis of the deposited data

How the results depend on the processing

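Of the 9 genes, Cd3e, Cd3g and Il7r kept their direction and call in all 24 alternatives, with adjusted p up to 0.0458, 0.00894 and 0.0355, and Lat stayed uncalled with a log2 fold change of -0.37 to -0.09. With the most abundant transcript of each gene only, 2 of the 9 were called higher: Cd3d (1.11, adjusted p = 0.0504) and Zap70 (1.07, 0.0578) missed the threshold, and Cd247 turned to -0.32 (adjusted p = 0.692) and Lck to 0.41. With curated transcripts only, Cd3d was at 0.94 (adjusted p = 0.114), Cd247 at 0.75 (0.0544) and Lck at 0.11. Fewer reads enter both fits. Lck was also above 0 with voom quality weights (0.0038) and without diabetic replicate 3 (0.080), healthy replicate 3 (0.05) or diabetic replicates 1 and 3 together (0.14), never called; leaving out each library in turn gave -0.13 to 0.080. Without diabetic replicates 1 and 3, Cd2 was at -0.46 (adjusted p = 0.0589), so 1 of the 9 was called lower. A filter of 50 counts in 4 libraries left Zap70 untested and 3 of the 9 called higher. Leaving out each library in turn, 4 stayed higher and 2 lower.

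Over all genes, 2233 higher and 2223 lower calls became 2412 and 2403 with the replicate block, which changed no call of the 9 genes and, beyond 1.5 times, no list count other than the lower calls among mast cell and macrophage markers. Scaling by library totals only shifted the median log2 fold change by -0.10 and gave 1524 higher and 3346 lower calls. The length-scaled units gave 1453 higher and 2949 lower (log2(TPM + 1)), 1448 and 2923 (log2(TPM + 0.1)), 1381 and 2795 (without a filter) and 1362 and 3048 (log2(FPKM + 1)). The most abundant transcript gave 1088 and 964, curated transcripts 1325 and 1206, a threshold of 0.01 1157 and 1167, and leaving out each library 1710 to 2865 higher and 1583 to 2504 lower; the highest of both came without diabetic replicate 1. The cause of these moves was not tested. Of 728 list counts recomputed, 41 moved by over 1.5 times. The higher calls among further T-lineage genes were 10 and became 4 with FPKM, 5 with a filter of 50 counts, 3 with the most abundant and 6 with curated transcripts, and those among natural killer markers were 12 and became 7 with that filter and with curated transcripts. With the most abundant transcript only, the 13 higher calls downstream of the receptor became 6, the 6 lower calls among brakes 1 and those among Cd2 partners 3. The 4 higher calls in interleukin 7 receptor signalling became 2 with library totals, FPKM or filtered TPM, and 3 with unfiltered TPM. They became 1 with the most abundant or with curated transcripts only, and 0 at a threshold of 0.01. Counts of other lists that 1 library or the block moved stand beside them in the text. At this depth Zap70 rests on the fewest reads of the 9 genes, and transcripts of Cd247 on fewer still.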
